A study of Mus musculus with 26 samples.

Results

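The comparison asks whether the change in cortical RNA after an experimental stroke depended on diet, high-fat or control, at 6 weeks. For each gene it is the stroke minus sham difference on the high-fat diet less the same difference on the control diet, on a log2 scale. It is called the surgery by diet difference here, and a value above 0 means a more positive difference between stroke and sham under high-fat feeding. It was formed from the libraries labelled 6 weeks, 16 of the 26 in the series. All were C57BL/6J mice, a common inbred strain. The groups were 6 libraries of stroke and 3 of sham surgery on the diet with 60% of its calories from fat, and 4 of stroke and 3 of sham surgery on the diet with 6%. Stroke cortex was taken 3 days after the operation and held the core of the infarct with a rim of penumbra. The label of 6 weeks is thus not the time since stroke. The day of death of the sham mice, the place where their cortex was dissected, the age, sex and body weight of any mouse, and whether each library came from its own animal are not given in the labels, so the p-values measure only the spread between libraries, which may be technical. Weight gain on the diet was thus not checked.

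Stroke kills neurons in the core and sets off a glial and immune response around it, in which microglia and invading monocytes clear debris, astrocytes become reactive, and interferon-inducible and antigen presentation genes are switched on. A high-fat diet alters lipid handling, circulating stress hormones and blood vessels. An interaction of the kind tested here is the part of the injury response that depends on the diet, and it carries the counting and sampling error of all 4 groups. In bulk tissue such as this, fewer cells of a type and less RNA per cell cannot be told apart.

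The 16 libraries held between 11400882 and 16962682 counts in genes. The excitatory neuron list stood at a mean of 7.14 to 7.67 log2 CPM (counts scaled to library size) in every library, so these neuronal genes were high throughout. The striatum list, of the neighbouring brain region, ranged from 3.11 to 5.37. Levels of different lists do not give the shares of tissue in a library. Choroid plexus genes were high in replicate 2 of sham on the high-fat diet and replicate 6 of stroke on the high-fat diet, at 2.44 and 3.85 against at most 0.92 elsewhere. Counts outside annotated genes took 25.9% ± 2.39 and 24.7% ± 1.78 of a library in sham on the high-fat and control diet (SD, n = 3 and 3), and 21.6% ± 0.821 and 21.4% ± 1.66 in stroke (SD, n = 6 and 4). Gfap, the filament gene of reactive astrocytes, stood at 86.6 to 108 and 86.3 to 95.8 CPM in sham and at 548 to 908 and 797 to 945 CPM in stroke on the control and high-fat diet, so no library went against its surgery label.

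Of 15991 genes tested, edgeR's quasi-likelihood test called 0 at an adjusted p under 0.05, which is 0% of the genes. The smallest adjusted p was 0.413. At an unadjusted p under 0.05 there were 800 genes with a value above 0 (5.0% of those tested) and 749 below 0 (4.68%). DESeq2, run on the same counts, called 3 genes (0.0188%), and limma's voom called 0 with 2358 at an unadjusted p under 0.05. The 3 genes were Junb (adjusted p = 0.000335), Metrn (adjusted p = 0.00698) and Slc16a1 (adjusted p = 0.0251), all with a value above 0. A fit over all 26 libraries called 0, with 914 at an unadjusted p under 0.05. The standard error of the surgery by diet difference had a median of 0.16 log2 over all genes tested. It was 0.12 over the 10165 genes with a mean of at least 10 CPM. A difference of the size of its usual error is thus below what these libraries can show. Even differences well above their error were not called. Metrn at 0.58 ± 0.11 and Junb at 1.29 ± 0.24 (SE) had an edgeR adjusted p of 0.413. The count of 0 thus does not show that there was no interaction. The count at an unadjusted p under 0.05 was 2429 without replicate 1 of sham on the high-fat diet and 912 without replicate 2 of that group.

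The values given from here on describe genes and lists in which no single gene passed the test in edgeR. By the rule used to name genes, the 10 smallest p-values in each direction were taken, and their adjusted p in edgeR lay between 0.413 and 0.482. In all 20 the diet difference had opposite signs in sham and in stroke, as it had in 778 of the 800 and 704 of the 749 genes at an unadjusted p under 0.05 and in 51.5% of all genes tested. A large interaction tends to need such a pattern, so it follows from the choice. Among the 10 with a value above 0, every sham library on the high-fat diet lay below every sham library on the control diet in 8 genes (6.67% of all genes tested), and every stroke library on the high-fat diet lay above every stroke library on the control diet in 6 (1.10%). Of the 10 with a value below 0, the stroke libraries on the high-fat diet all lay below those on the control diet in 7 (1.17%), and the sham libraries on the high-fat diet all lay above in 2 (5.12%). No named gene with a value below 0 had every sham library on the high-fat diet below the control diet. Both shares over all genes and these counts rest on the same libraries as the choice of genes.

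Metrn encodes meteorin, a secreted protein of glia that promotes gliogenesis and axon growth. It stood at 34.7, 39.2 and 36.7 CPM in sham on the control diet and at 32.1, 27.8 and 30.4 CPM in sham on the high-fat diet. After stroke it was at 43.6, 40.2, 45.4 and 47.1 CPM on the control diet, and its lowest, median and highest value on the high-fat diet were 48.9, 52.9 and 58.7 CPM. The 4 groups did not overlap: sham on the high-fat diet was lowest and stroke on the high-fat diet highest. For Metrn the surgery by diet difference was 0.58 ± 0.11 (SE, edgeR adjusted p = 0.413), and it lay between 0.53 and 0.63 when 1 library was left out in turn. The stroke minus sham difference was 0.84 under high-fat feeding and 0.26 under control feeding.

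Slc16a1 encodes MCT1, a carrier of lactate, pyruvate and ketone bodies in blood vessels and glia. Its levels were 60.2, 53.4 and 49.4 CPM in sham and 56.9, 60.6, 62.4 and 64.6 CPM in stroke on the control diet. Under high-fat feeding they were 46.3, 42.5 and 47.1 CPM in sham, with 69.8, 71.9 and 82.9 CPM as the lowest, median and highest in stroke. All stroke libraries on the high-fat diet lay above all others, and all sham libraries on that diet lay below all others. The surgery by diet difference was 0.55 ± 0.11 (SE, edgeR adjusted p = 0.413). Its relatives on the list of monocarboxylate and glucose carriers had values of both signs. Slc16a7, the high-affinity MCT2 of neurons, had a value of -0.37 ± 0.13, and Slc16a3, the MCT4 of glycolytic cells, had 0.65 ± 0.27. The median over the 13 genes of this list was 0.072, beside 0.01 over all genes tested.

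Junb encodes a subunit of the AP-1 transcription factor that cells make within minutes of a stimulus. In sham mice it stood at 69.4, 68.4 and 89.4 CPM on the control diet and at 28.5, 51 and 38.2 CPM on the high-fat diet, with no overlap. In stroke mice the 4 values on the control diet were 61.1, 47.8, 57.7 and 42.1 CPM, and the lowest, median and highest on the high-fat diet were 58.5, 62.7 and 77.3 CPM, with an overlap of the 2 groups. Stroke libraries were thus below sham libraries on the control diet and above them on the high-fat diet. For Junb the surgery by diet difference was 1.29 ± 0.24 (SE, edgeR adjusted p = 0.413), between 1.10 and 1.52 with 1 library left out. The largest part of it lay in sham, where high-fat minus control was -0.95, against 0.34 in stroke.

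**Figure D1:**
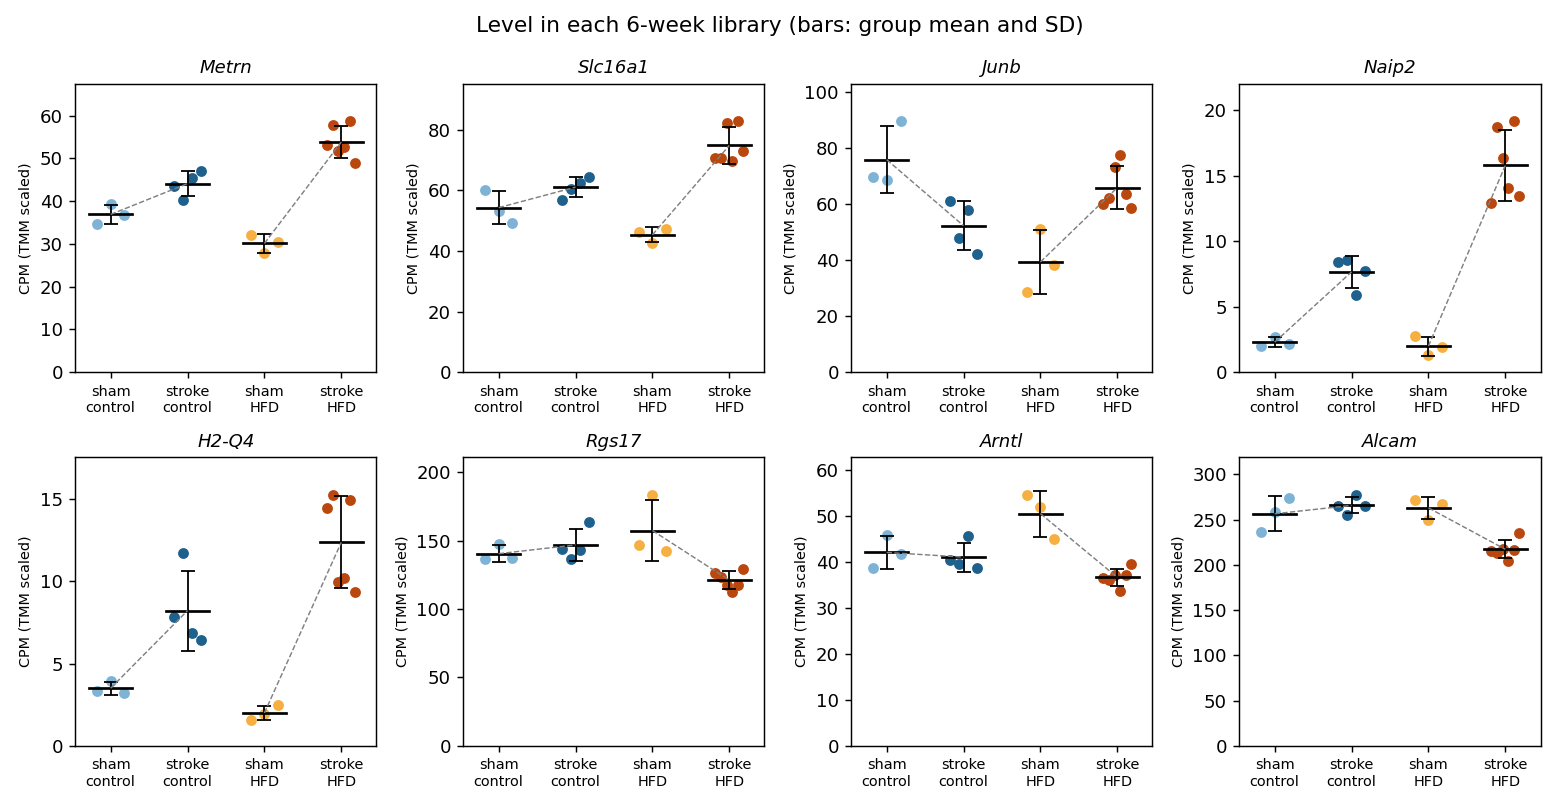
Levels in CPM (y axis, from 0) of 8 genes in each 6-week library, by surgery and diet (x axis). Points are libraries, bars show the group mean and its SD, and dashed lines join sham to stroke within a diet. For Metrn, Slc16a1, Junb, Naip2 and H2-Q4 the line is steeper or turned upward on the high-fat diet, and for Rgs17, Arntl and Alcam it points down there.

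Other genes with a value above 0 had different roles. The serine/threonine kinase gene Pim3, the early response gene Ier5l and the nuclear envelope gene Lbr had surgery by diet differences of 0.69 ± 0.15, 1.17 ± 0.26 and 0.47 ± 0.11. Ier5l stood at 11.2, 7.51 and 9.97 CPM in sham on the control diet, 5.98, 6.36 and 7.0 CPM in sham on the high-fat diet and 6.47, 3.64, 6.33 and 6.57 CPM in stroke on the control diet. Its lowest, median and highest levels in stroke on the high-fat diet were 7.31, 8.58 and 10.5 CPM, above all 4 stroke libraries on the control diet. Echs1, a mitochondrial enzyme of fatty acid oxidation, had 0.41 ± 0.095 and was lowest in sham on the high-fat diet, at 39.9, 32.2 and 36 CPM, against 43.3 to 45.8 CPM in sham on the control diet. Gpr62, a receptor gene of myelinating oligodendrocytes, had 0.80 ± 0.19. Its levels were 9.51, 9.8 and 8.23 CPM in sham and 7.37, 7.1, 7.37 and 5.79 CPM in stroke on the control diet, but 7.57, 5.93 and 6.29 CPM in sham and 7.13, 8.82 and 9.62 CPM (lowest, median and highest) in stroke on the high-fat diet, so that stroke lay below sham on the control diet and had the higher mean on the high-fat diet, where the groups overlapped.

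In Adap2 and Naip2 the larger part of the difference lay in the stroke libraries, where high-fat minus control was 0.49 and 1.04, against -0.21 in sham for both. Adap2 encodes a GTPase-activating protein at the plasma membrane, and Naip2 a sensor of bacterial secretion proteins in the inflammasome of macrophages. Naip2 stood at 2.01, 2.71 and 2.12 CPM in sham on the control and 2.74, 1.29 and 1.91 CPM on the high-fat diet. After stroke it was at 8.41, 8.57, 5.9 and 7.74 CPM on the control diet, with 12.9, 15.2 and 19.2 CPM as the lowest, median and highest on the high-fat diet. The stroke groups did not overlap, and the sham groups did. The surgery by diet difference was 1.24 ± 0.31 for Naip2 and 0.70 ± 0.18 for Adap2 (SE, edgeR adjusted p = 0.482 for both). Naip2 belongs to a family of close copies, so that its count is uncertain where the counting could divide fragments between them.

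The 10 genes named with a value below 0 were Rgs17, Alcam, Arntl, Sbno1, Robo2, Smim13, Slc35f1, Efnb2, Bmpr2 and Zfp738, with values between -0.62 and -0.31. Rgs17, a regulator of G protein signalling in neurons, stood at 137, 148 and 137 CPM in sham and 144, 137, 143 and 164 CPM in stroke on the control diet. It was at 147, 183 and 142 CPM in sham on the high-fat diet, with 112, 121 and 129.6 CPM as the lowest, median and highest in stroke. All 6 stroke libraries on the high-fat diet lay below every other library, and the surgery by diet difference was -0.44 ± 0.11. Alcam, an adhesion molecule of neurons and brain endothelium, had -0.33 ± 0.083, with 205, 216 and 235 CPM in stroke on the high-fat diet against 256 to 277 CPM in stroke on the control diet. The axon guidance receptor gene Robo2 and the ephrin gene Efnb2, which acts between vessels and between neurons, had -0.35 ± 0.092 and -0.62 ± 0.17. The bone morphogenetic protein receptor gene Bmpr2 had -0.49 ± 0.13, and leaving out replicate 2 of sham on the high-fat diet brought it to -0.30. That library held the highest Bmpr2 of all, 147 CPM, and the highest Rgs17, 183 CPM.

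Arntl encodes BMAL1, the core activator of the circadian clock, which drives genes such as Per2 together with its partner CLOCK. It was at 38.6, 45.8 and 41.6 CPM in sham and 40.3, 39.4, 45.6 and 38.7 CPM in stroke on the control diet, and at 54.5, 52 and 44.9 CPM in sham on the high-fat diet. In stroke on the high-fat diet its lowest, median and highest values were 33.6, 36.7 and 39.5 CPM. The groups overlapped within sham and within stroke, and the surgery by diet difference was -0.43 ± 0.11. The partner genes Clock and Npas2 had -0.23 ± 0.085 and -0.28 ± 0.14. Over the 16 clock genes the median was -0.075, with 10 below 0. The labels give no time of day. With an offset for GC content and transcript length in the model the value of Clock was -0.01 and that of Arntl -0.39.

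Gene lists were described by the median over their tested members and the number above 0, beside a median of 0.01 and 8305 of 15991 above 0 for all genes. The lists were chosen with earlier results of these data known, and members of a list share the same libraries. Counts of members are thus descriptions and not separate observations. Genes that rose more after stroke had higher medians in general. Classes were formed by the stroke minus sham difference averaged over both diets. For averages of 1 to 2, 2 to 3 and 3 or more the medians were 0.47, 0.64 and 0.92. In these classes 86.8%, 90.5% and 87.9% of genes lay above 0. Whether a list of genes higher after stroke, such as complement, cell cycle or matrix, differs from its class was not tested. The median lay above 0 in 25 of the 32 lists and below 0 in 7, and edgeR called no gene of any list (0% of genes called). DESeq2 called Junb and Slc16a1, each a member of 1 list. Counts of members at an unadjusted p under 0.05 are to be read beside all genes above 0 at that threshold. These were 800 of 15991 (5.0%) in the main fit and 444 of 16325 over all 26 libraries. They were 694 of 16172 without both choroid-rich libraries and 919 of 26594 with no filter on low counts. In the main fit the share was higher among genes that rose after stroke. It was 125 of 634, 35 of 232 and 21 of 214 in the classes of 1 to 2, 2 to 3 and 3 or more. Counts in lists of genes higher after stroke are thus to be read beside these classes too. Adjusted p over all list members lay between 0.413 and 1.00. The highest medians were those of the interferon, MHC class I and cytokine lists, and the lowest those of striatal, mitochondrially encoded and excitatory neuron genes.

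**Figure D2:**
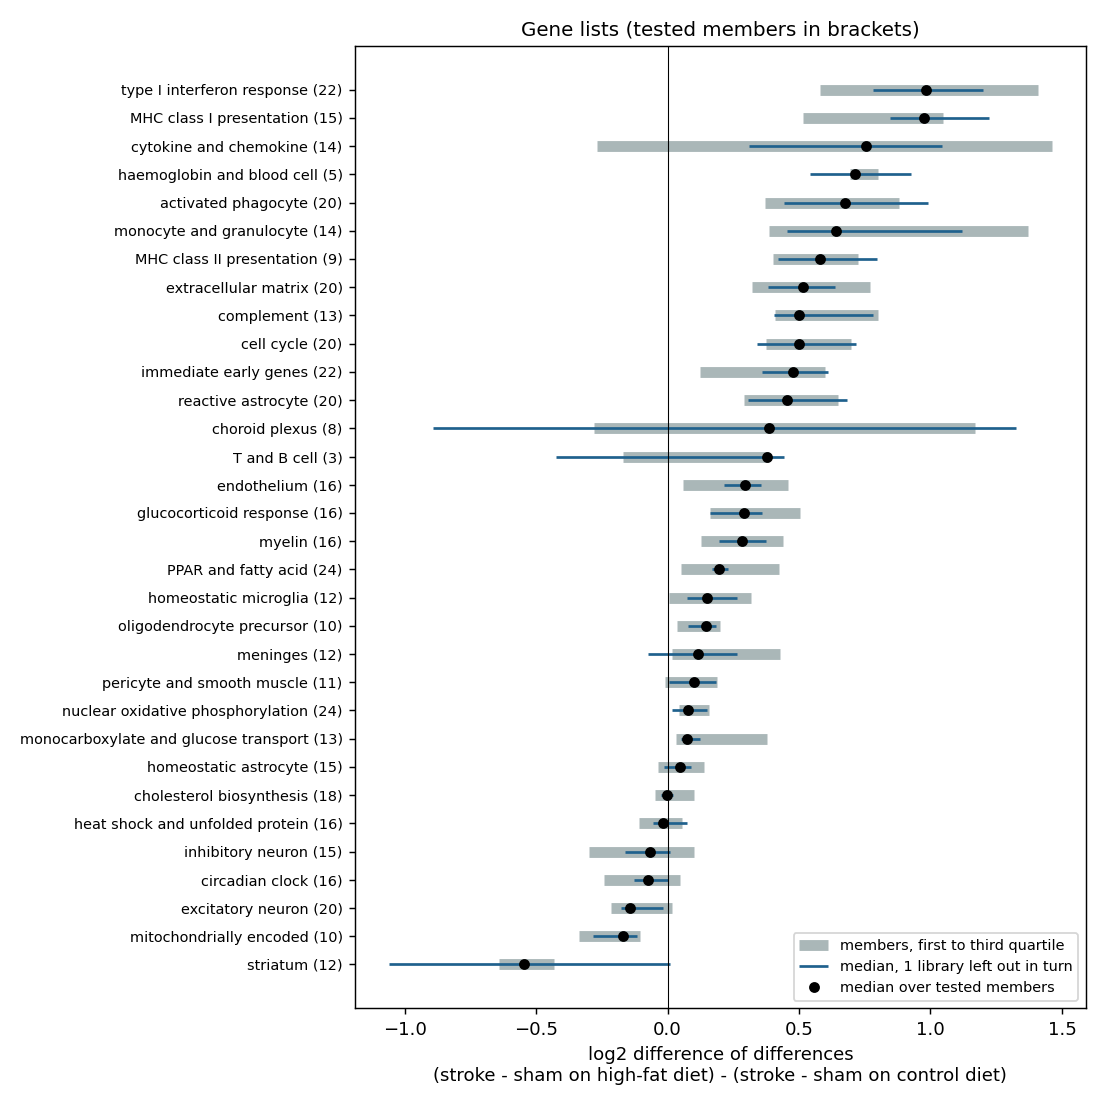
Median surgery by diet difference in log2 (x axis, black points) for each of the 32 gene lists (y axis, number of tested members in brackets). Grey bars span the middle quartiles of the members and blue lines the range of the median with 1 library left out in turn; the interferon and MHC class I lists lie near 0.98 and the striatum list at -0.55 with a range that reaches 0.01.

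Type I interferon response genes, which block viral replication and are switched on through interferon receptors, had a median of 0.98. Of the 22 tested, 21 lay above 0 and 10 had an unadjusted p under 0.05, where 5.0% of all genes did in that direction. In the fit over all 26 libraries, with the same median of 0.98, 0 of the 22 did, beside 444 of 16325 genes. Ifit1, which binds viral RNA, stood at 7.15, 8.69 and 4.57 CPM in sham on the control diet and at 3.82, 4.22 and 3.04 CPM in sham on the high-fat diet, with every high-fat value below every control value. After stroke it was at 22.2, 35.4, 23.5 and 27.2 CPM on the control diet, and the lowest, median and highest on the high-fat diet were 24.8, 41.6 and 61.3 CPM, with an overlap. For Ifit1 the difference was 1.51 ± 0.46. Mx1, a GTPase against influenza-like viruses, and Bst2, which tethers budding virus, had 1.79 ± 0.64 and 1.35 ± 0.47. Mx1 rests on few counts in sham, at 0.257 to 1.11 CPM and 0.141 to 0.505 CPM on the control and high-fat diet. The gene below 0, named after its value was seen, was Oas2, at -0.041 ± 0.54.

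The interferon list mean was 1.75, 1.79 and 1.06 log2 CPM in sham on the control diet and 1.14, 1.21 and 1.11 on the high-fat diet. In stroke it was 3.50, 4.23, 3.57 and 3.69 on the control diet, with 3.81, 4.23 and 4.83 as the lowest, median and highest on the high-fat diet. Replicate 3 of sham on the control diet lay below all sham libraries on the high-fat diet, and replicate 2 of stroke on the control diet lay within the high-fat range. The median high-fat minus control difference was -0.37 in sham and 0.54 in stroke, so both arms entered the surgery by diet difference. With 1 library left out the list median lay between 0.78 and 1.20.

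MHC class I genes present peptides from inside the cell to CD8 T cells, with heavy chains (H2 genes), the light chain gene B2m, the peptide pump Tap1 and the immunoproteasome subunits Psmb8 and Psmb9. All 15 lay above 0, with a median of 0.98, and 11 had an unadjusted p under 0.05, where 5.0% of all genes did in that direction. In the fit over all 26 libraries 3 did, beside 444 of 16325 genes in that direction. H2-Q4 stood at 3.33, 3.96 and 3.22 CPM in sham on the control diet and 1.59, 1.93 and 2.47 CPM on the high-fat diet, with no overlap. After stroke it was at 7.86, 11.8, 6.85 and 6.44 CPM on the control diet, and the high-fat libraries had 9.38, 12.4 and 15.3 CPM as lowest, median and highest. Its surgery by diet difference was 1.39 ± 0.35 (SE, edgeR adjusted p = 0.482) and reached 1.62 without replicate 2 of stroke on the control diet, the highest of its group. The related H2-Q6 and H2-Q7 had 1.74 ± 0.53 and 1.85 ± 0.65. H2-Q7 rests on few counts in sham, at 0.555 to 0.834 CPM and 0.141 to 0.432 CPM on the control and high-fat diet. H2-Q genes are near-identical copies of each other, so single counts are uncertain, and they are not independent of one another.

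Over the MHC class I list the sham libraries did not overlap, and the list mean stood at 2.95, 3.07 and 2.73 log2 CPM on the control diet and 2.65, 2.61 and 2.46 on the high-fat diet. In stroke the means were 3.87, 4.42, 3.77 and 3.70 on the control diet and 4.10, 4.38 and 4.87 (lowest, median and highest) on the high-fat diet. The MHC class II list, which presents peptides taken up from outside, had a median of 0.58 with 9 of 9 above 0 and 2 at an unadjusted p under 0.05 (1 over all 26 libraries). Its members H2-DMa, a peptide loading chaperone, and Ctss, a protease that trims the invariant chain, had 0.58 ± 0.19 and 0.65 ± 0.30. Levels of H2-DMa in sham were 9.58, 7.78 and 7.65 CPM on the control and 7.35, 5.86 and 5.58 CPM on the high-fat diet, without overlap.

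Many lists had most members above 0. Of these, promoter sequences are shown for 1 gene each of the interferon, MHC class I and immediate early lists. They are the 250 bases before the start site in RefSeq on GRCm38.p6, read 5′ to 3′ on the gene's strand, and capitals mark the motif. For Ifit1 (chr19:34640639-34640888, + strand) the motif is GAAANNGAAA, the core of the interferon-stimulated response element, searched on both strands. For H2-Q4 (chr17:35379367-35379616, + strand) and Junb (chr8:84978749-84978998, - strand) it is TGACG, the half-site bound by CREB-like factors, also searched on both strands.
Ifit1: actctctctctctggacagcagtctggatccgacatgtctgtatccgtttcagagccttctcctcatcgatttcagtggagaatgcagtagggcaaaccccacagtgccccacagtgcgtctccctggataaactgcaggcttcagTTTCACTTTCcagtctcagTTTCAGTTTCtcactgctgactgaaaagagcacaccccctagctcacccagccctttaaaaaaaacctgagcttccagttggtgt
H2-Q4: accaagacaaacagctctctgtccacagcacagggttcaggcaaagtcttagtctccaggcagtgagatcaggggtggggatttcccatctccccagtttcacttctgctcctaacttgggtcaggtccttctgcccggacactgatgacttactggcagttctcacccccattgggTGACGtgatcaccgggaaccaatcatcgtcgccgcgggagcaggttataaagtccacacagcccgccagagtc
Junb: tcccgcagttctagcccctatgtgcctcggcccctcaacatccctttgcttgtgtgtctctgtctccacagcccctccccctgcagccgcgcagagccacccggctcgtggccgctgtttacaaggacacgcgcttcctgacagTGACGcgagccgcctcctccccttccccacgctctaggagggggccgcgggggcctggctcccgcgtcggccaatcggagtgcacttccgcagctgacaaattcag

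Ifit1 held 2 matches to GAAANNGAAA, which begin 104 and 85 bases before the start site. Counted by gene over all listed starts, 9 of the 16 interferon genes with a RefSeq promoter held this motif in the 250 bases, beside 936 of 27025 genes in all (3.46%). In the MHC class I list it was 3 of 13, among them B2m. TGACG was found in 8 of the 13 MHC class I genes and 12 of 18 immediate early genes, beside 5347 of 27025 in all (19.8%). It was also found in 7 of 15 glucocorticoid response genes and in 2 of the 16 interferon genes. In H2-Q4 and Junb it begins 73 and 106 bases before the start. The motifs can overlap by at most 1 base, and a match describes the letters alone. The H2 genes among the 8 are related, so they are not separate observations. Whether genes with a motif differ in the surgery by diet difference was not tested. The promoters come from another build than the counts, so no coordinate of the counted genes is given.

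Immediate early genes report recent neuronal activity or cell stress. Their median was 0.48, with 19 of 22 above 0, and Junb, Ier5l and Ier2 had an unadjusted p under 0.05. Ier2 stood at 4.86, 9.17 and 9.78 CPM in sham on the control and 3.6, 7.22 and 4.88 CPM in sham on the high-fat diet, and its surgery by diet difference was 0.84 ± 0.32. The list mean was 4.48, 4.47 and 4.73 log2 CPM in sham on the control diet and 4.07, 4.73 and 4.09 in sham on the high-fat diet, where replicate 2 lay above the others. In stroke it was 4.42, 4.45, 4.51 and 4.07 on the control diet, with 4.41, 4.48 and 4.73 on the high-fat diet (lowest, median and highest). The median of the list was 0.61 without replicate 2 of sham on the high-fat diet and 0.69 with both choroid-rich libraries left out. The count at an unadjusted p under 0.05 was then 11, beside 694 above and 666 below 0 of 16172 genes in all. With voom it was 14, beside 1241 above and 1117 below 0 of 15991.

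The glucocorticoid response list, whose genes follow the stress hormone receptor, had a median of 0.29 with 15 of 16 above 0 and 5 at an unadjusted p under 0.05. That count was 2 over all 26 libraries and 1 with both choroid-rich libraries left out, where the median was 0.21. Ddit4, an inhibitor of mTOR, was at 32.1, 23.8 and 23.1 CPM in sham and 18.6, 19.2, 18.7 and 17.9 CPM in stroke on the control diet. Under high-fat feeding Ddit4 was at 20.0, 17.5 and 22 CPM in sham and at 17.6, 19.7 and 23.9 CPM (lowest, median and highest) in stroke. Thus sham and stroke were apart on the control diet and overlapped on the high-fat diet, and the surgery by diet difference was 0.52 ± 0.16. The kinase gene Sgk1 and the metallothionein gene Mt2 had 0.52 ± 0.19 and 0.57 ± 0.22. Without replicate 1 of sham on the control diet, the highest of its group with a list mean of 5.43 log2 CPM, the list median was 0.16.

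**Figure D3:**
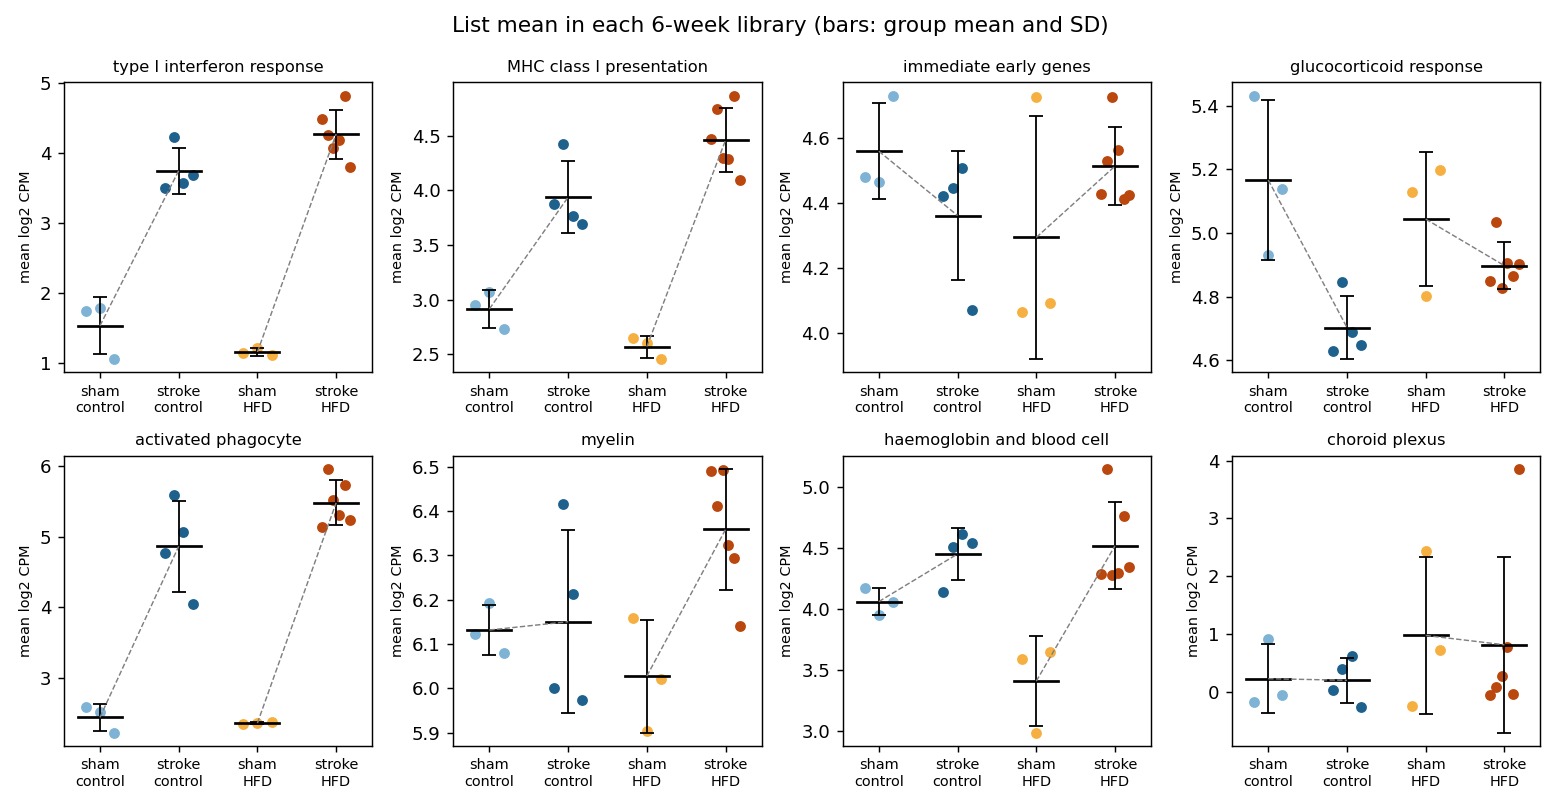
Mean log2 CPM over the members of 8 gene lists (y axis) in each 6-week library, by surgery and diet (x axis). Points are libraries and bars the group mean and its SD; MHC class I shows sham libraries on the high-fat diet below those on the control diet and stroke libraries mostly above, and the choroid plexus panel shows 1 library at 2.44 and another at 3.85.

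To see how the surgery by diet difference varied with the stroke response, genes were grouped by their stroke minus sham difference averaged over both diets, which uses the same libraries as the surgery by diet difference, so the relation is a description. The median surgery by diet difference was -0.016 over the 10997 genes with an averaged response within 0.25 of 0. It was 0.11 for responses of 0.25 to 0.5, 0.25 for 0.5 to 1, 0.47 for 1 to 2 (634 genes), 0.64 for 2 to 3 (232 genes) and 0.92 for 3 or more (214 genes). In the last of these 87.9% of genes lay above 0. For these 3 highest classes the median high-fat minus control difference was 0.40, 0.52 and 0.63 in stroke and -0.063, -0.069 and -0.16 in sham, so the larger part lay in stroke. Genes lower after stroke showed no mirror image: the median was -0.041 for responses of -1 to -0.5 (344 genes) and 0.065 for those below -1 (25 genes). Over the 1080 genes with a response of at least 1 the median was 0.56, and it lay between 0.44 without replicate 4 and 0.75 without replicate 2 of stroke on the control diet.

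**Figure D4:**
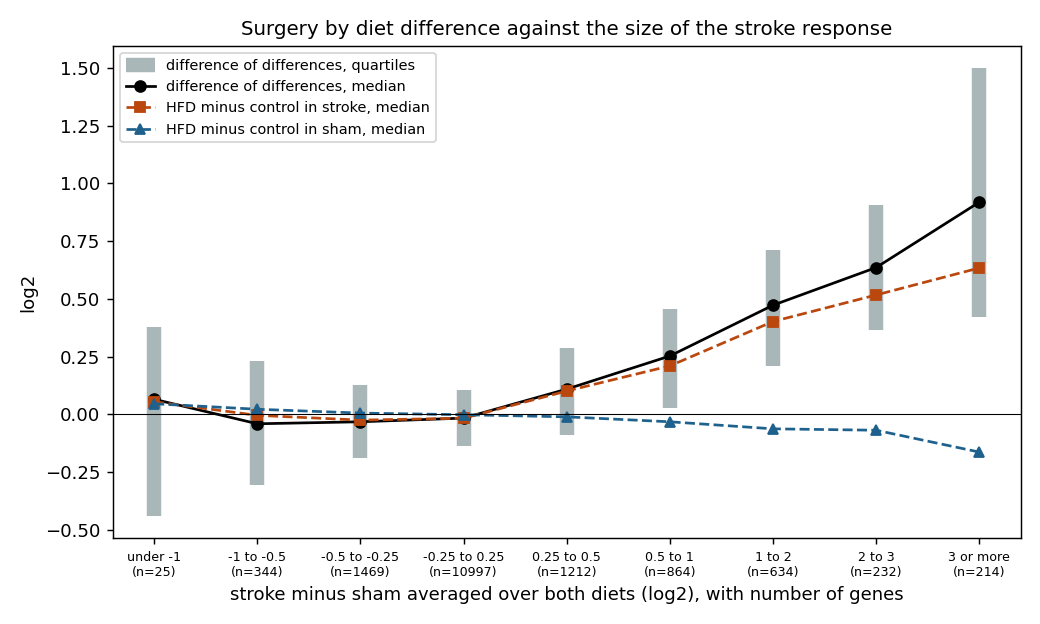
Surgery by diet difference in log2 (y axis) for genes grouped by their stroke minus sham difference averaged over both diets (x axis, number of genes in brackets). Black points are medians, grey bars the middle quartiles, and dashed lines the medians of high-fat minus control in stroke and in sham; the black line climbs from -0.016 near no response to 0.92 at a response of 3 or more.

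Among phagocyte genes, the activated list had a median of 0.68 with 18 of 20 above 0 and 2 at an unadjusted p under 0.05, but 0 over all 26 libraries and 0 with both choroid-rich libraries left out. Trem2, a lipid receptor of microglia and macrophages, stood at 11.9, 12.9 and 11.5 CPM in sham on the control and 12, 9.72 and 10.7 CPM on the high-fat diet. After stroke it was at 26.9, 47.3, 31.1 and 23.8 CPM on the control diet, with 42.2, 46.5 and 66.1 CPM as the lowest, median and highest on the high-fat diet. Replicate 2 of stroke on the control diet lay inside the high-fat range, and the surgery by diet difference was 0.78 ± 0.29. The fatty acid carrier gene Fabp5 and the lipoprotein gene Apoe had 0.39 ± 0.15 and 0.24 ± 0.11. The list means of stroke on the control diet were 4.77, 5.59, 5.06 and 4.04 log2 CPM, the widest spread of the 4 groups, and the list median moved from 0.68 to 0.99 without replicate 2 and to 0.44 without replicate 4 of that group.

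Homeostatic microglia genes had a lower median, 0.15, with 9 of 12 above 0 and 0 at an unadjusted p under 0.05. Gpr34 and Cx3cr1, which are high in resting microglia, had 0.34 ± 0.17 and 0.31 ± 0.21. Monocyte and granulocyte genes had a median of 0.64 with 13 of 14 above 0, and 0 at an unadjusted p under 0.05. The monocyte chemokine receptor gene Ccr2 stood at 3.89, 10.9, 6.24 and 2.73 CPM in stroke on the control diet and at 5.07, 9.74 and 16.5 CPM (lowest, median and highest) on the high-fat diet, with an overlap, against at most 0.695 CPM in sham. Its surgery by diet difference was 1.5 ± 1.14, a value close to the size of its error. The granulocyte receptor gene Csf3r and the integrin gene Itgal had 0.48 ± 0.24 and 0.79 ± 0.57. The neutrophil markers Ly6g, Cxcr2 and Cd177 were not among the tested genes.

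The complement list, whose products tag debris and synapses for removal, had a median of 0.50 with 13 of 13 above 0. C1qc, Itgam and C5ar1 had 0.69 ± 0.28, 0.48 ± 0.23 and 1.54 ± 0.76. C5ar1 rests on few counts in sham, at 0.278 to 0.694 CPM and 0.144 to 0.286 CPM on the control and high-fat diet. Cytokines and chemokines were mixed, with 9 of 14 above 0 and a median of 0.75. Cxcl16 had 1.33 ± 0.68, and the fitted value of the monocyte attractant gene Ccl2 was 2.70 ± 1.46. Ccl2 was near the limit of counting in sham, at 0.833, 0.0695 and 0 CPM on the control and 0.216, 0 and 0 CPM on the high-fat diet, and leaving out replicate 1 of sham on the control diet turned its value to -0.16. In sham the related Ccl7 was at 0.129 to 0.208 CPM under control and 0 to 0.0721 CPM under high-fat feeding, so no fold is given for it.

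Reactive astrocyte genes had a median of 0.45 with 19 of 20 above 0 and 4 at an unadjusted p under 0.05. That count was 1 over all 26 libraries, 1 with both choroid-rich libraries left out and 2 with no filter on low counts. Tm4sf1 stood at 11.7, 11 and 11.6 CPM in sham on the control diet and 7.86, 7.79 and 8.69 CPM on the high-fat diet, with no overlap, and its surgery by diet difference was 0.80 ± 0.30. Gfap had 0.42 ± 0.18. Lcn2, an iron-binding protein of astrocytes and neutrophils, had no count in the 3 sham libraries on the high-fat diet and was at 0.625, 0.0695 and 0.129 CPM in sham on the control diet, so no fold is given for it. After stroke Lcn2 was at 5.28, 9.53, 5.03 and 5.2 CPM on the control diet and at 4.8, 7.28 and 13 CPM (lowest, median and highest) on the high-fat diet, with an overlap. Homeostatic astrocyte genes had a median of 0.047, with 2 members above and 1 below 0 at an unadjusted p under 0.05. The folate enzyme gene Aldh1l1 had 0.32 ± 0.14, and the glutamate transporter gene Slc1a2 had -0.32 ± 0.15, which was -0.09 without replicate 2 of sham on the high-fat diet.

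All 20 cell cycle genes lay above 0, with a median of 0.50 and 2 at an unadjusted p under 0.05 (0 over all 26 libraries). The replication clamp gene Pcna stood at 43.3, 42.9 and 42.1 CPM in sham on the control diet and 41.7, 36.3 and 37.8 CPM on the high-fat diet, without overlap. In stroke Pcna was at 44, 55, 46.3 and 46.4 CPM on the control diet and at 47.1, 53.8 and 64.7 CPM (lowest, median and highest) on the high-fat diet. Its surgery by diet difference was 0.33 ± 0.13, and that of the mitotic gene Ccna2 was 0.97 ± 0.47. The mitotic kinase gene Aurkb was near the limit of counting in sham on the high-fat diet, at 0.0707 to 0.143 CPM, so no fold is given for it. Extracellular matrix genes had a median of 0.52 with 19 of 20 above 0. The proteoglycan gene Lum, made by fibroblasts, stood at 6.61, 13.9, 11.3 and 5.4 CPM in stroke on the control diet and at 7.51, 18.5 and 23.9 CPM (lowest, median and highest) on the high-fat diet, with a value of 1.43 ± 0.59. The collagenase gene Mmp14 and the proteoglycan gene Bgn had 0.74 ± 0.33 and 0.58 ± 0.37.

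Endothelial genes had a median of 0.29, with 14 of 16 above 0 and 5 at an unadjusted p under 0.05 (1 over all 26 libraries). Cldn5, the main tight junction protein of the blood-brain barrier, stood at 22.4, 22.1 and 21.1 CPM in sham on the control and 18.1, 21.2 and 17 CPM on the high-fat diet. In stroke Cldn5 was at 23.6, 28.6, 24.9 and 32.6 CPM on the control diet, and its lowest, median and highest on the high-fat diet were 27.1, 34.9 and 47.3 CPM. The diets overlapped in sham, by 1 library on each side, and in stroke, and the surgery by diet difference was 0.64 ± 0.21, or 0.42 with offsets for GC content and length. Ly6c1 and the receptor gene Tie1 had 0.40 ± 0.14 and 0.76 ± 0.27. Pericyte and smooth muscle genes had a median of 0.10 with 8 of 11 above 0. The contractile gene Tagln had 0.94 ± 0.37, and the pericyte gene Rgs5 0.092 ± 0.10.

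All 5 blood cell genes tested lay above 0, with a median of 0.71 and 3 at an unadjusted p under 0.05 (2 over all 26 libraries). Hba-a2, a haemoglobin alpha chain, stood at 11.6, 10.4 and 11.5 CPM in sham on the control diet and 7.35, 4.86 and 8.27 CPM on the high-fat diet, without overlap. After stroke Hba-a2 was at 11.3, 15.7, 15.9 and 15.5 CPM on the control and at 12.9, 14.1 and 23 CPM (lowest, median and highest) on the high-fat diet, with an overlap. The surgery by diet differences of Hba-a2, its close copy Hba-a1 and the haem synthesis gene Alas2 were 0.88 ± 0.29, 0.80 ± 0.29 and 0.71 ± 0.31. The 2 alpha chain genes share most of their sequence, so the count of either is uncertain. The median high-fat minus control difference of the list was -0.64 in sham and 0.055 in stroke. The part of blood in the values of vessel and monocyte genes was not tested.

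Myelin genes had a median of 0.28 with 15 of 16 above 0 and 6 at an unadjusted p under 0.05 (3 over all 26 libraries). Opalin, a membrane protein of mature oligodendrocytes, stood at 19.3, 21.1 and 19.1 CPM in sham on the control diet and 20.8, 15.6 and 12.3 CPM in sham on the high-fat diet, with an overlap. In stroke Opalin was at 17.6, 22.3, 16.9 and 17.8 CPM on the control diet and at 19.8, 22.4 and 23.6 CPM (lowest, median and highest) on the high-fat diet. The values of Opalin and the myelin enzyme gene Cnp were 0.52 ± 0.18 and 0.41 ± 0.14. The list means were 6.16, 5.90 and 6.02 log2 CPM in sham on the high-fat diet and 6.00, 6.42, 6.21 and 5.97 in stroke on the control diet, so both groups spread by more than 0.2. Oligodendrocyte precursor genes had a median of 0.15 with 8 of 10 above 0, and Olig1, a transcription factor of the lineage, had 0.37 ± 0.13.

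The medians of the neuronal lists lay below 0, with members on both sides. Excitatory neuron genes had a median of -0.14, with 14 of 20 below 0 and 1 of them at an unadjusted p under 0.05, beside 4.68% of all genes in that direction. That gene was Grin2b, an NMDA receptor subunit, at -0.39 ± 0.18. Replicate 2 of sham on the high-fat diet held 1247 CPM of Grin2b against 671 to 948 CPM in the other 15 libraries, and the list median was -0.017 without that library. Neurod2, a transcription factor, and Syt1, a calcium sensor of synaptic vesicles, had 0.42 ± 0.20 and -0.27 ± 0.13. Inhibitory neuron genes had a median of -0.067, with 9 of 15 below 0.

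Reln, which encodes reelin and marks a class of cortical interneurons, stood at 115, 104 and 132 CPM in sham and 170.1, 145, 176 and 187 CPM in stroke on the control diet. Under high-fat feeding Reln was at 97.9, 182 and 155 CPM in sham and at 98.6, 128 and 146 CPM (lowest, median and highest) in stroke. Its surgery by diet difference was -0.77 ± 0.25, between -0.99 and -0.57 with 1 library left out. The enzyme gene Gad2, which makes the transmitter GABA, and Dlx5 had -0.37 ± 0.20 and -0.70 ± 0.46. Striatal genes were all below 0 with a median of -0.55 and 0 of 12 at an unadjusted p under 0.05, and their median was 0.01 without replicate 3 of sham on the high-fat diet. The list mean ranged from 3.34 to 5.08 log2 CPM within sham on the high-fat diet alone; the part of neighbouring tissue in these values was not tested.

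The PPAR and fatty acid list, which responds to fatty acids, had a median of 0.19 with 18 of 24 above 0. Ucp2, a mitochondrial carrier found in immune cells, had 1.02 ± 0.38, and the thioesterase gene Acot2 had 0.52 ± 0.22. Ppargc1a, a coactivator of mitochondrial genes, had -0.31 ± 0.15. Cholesterol synthesis genes had a median of -0.0022, with 8 of 18 above 0, and Mvk and Insig1 had 0.50 ± 0.18 and 0.26 ± 0.12. Nuclear genes of oxidative phosphorylation had a small median of 0.079, though 21 of 24 lay above 0, and it was 0.021 with offsets for GC content and length. The complex I gene Ndufa2 had 0.23 ± 0.094. Mitochondrially encoded genes had a median of -0.17 with 9 of 10 below 0, among them mt-Nd4 at -0.30 ± 0.15.

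Chaperone genes had a median of -0.019 with 8 of 16 below 0. Hsph1, a cytosolic chaperone, stood at 314, 315 and 323 CPM in sham and 316, 303, 334 and 309 CPM in stroke on the control diet. Under high-fat feeding Hsph1 was at 343, 388 and 347 CPM in sham and at 255, 286 and 313 CPM (lowest, median and highest) in stroke. Every sham library on the high-fat diet lay above every sham library on the control diet, and the surgery by diet difference was -0.33 ± 0.089. Hsp90b1, the chaperone of the endoplasmic reticulum, had -0.23 ± 0.10, and the stress factor gene Atf3 had 0.96 ± 0.62.

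Choroid plexus genes had a median of 0.38, which was -0.89 without replicate 6 of stroke and 1.33 without replicate 2 of sham on the high-fat diet. Meningeal genes had a median of 0.12. T and B cell genes had 0.38 over the 3 members with enough counts of 15, and the T cell receptor complex genes Cd3e, Cd3g and Cd3d were not among the tested genes.

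Values of the surgery by diet difference moved with the GC content and length of transcripts. These were known for 15798 of the tested genes (98.8%). By 10 equal classes of GC content, the median went from -0.088 in the lowest to 0.11 in the highest, and by 10 classes of length from 0.10 in the shortest to -0.14 in the longest. Spearman's rho over genes was 0.24 for GC content and -0.29 for length. Genes are not independent replicates, so no test is given. The GC trend lay in the stroke libraries, where the median of high-fat minus control went from -0.091 to 0.10, while in sham it stayed between -0.014 and 0.0017. The length trend lay mainly in the sham libraries, from -0.084 for the shortest to 0.10 for the longest, against 0.016 and -0.040 in stroke.

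**Figure D5:**
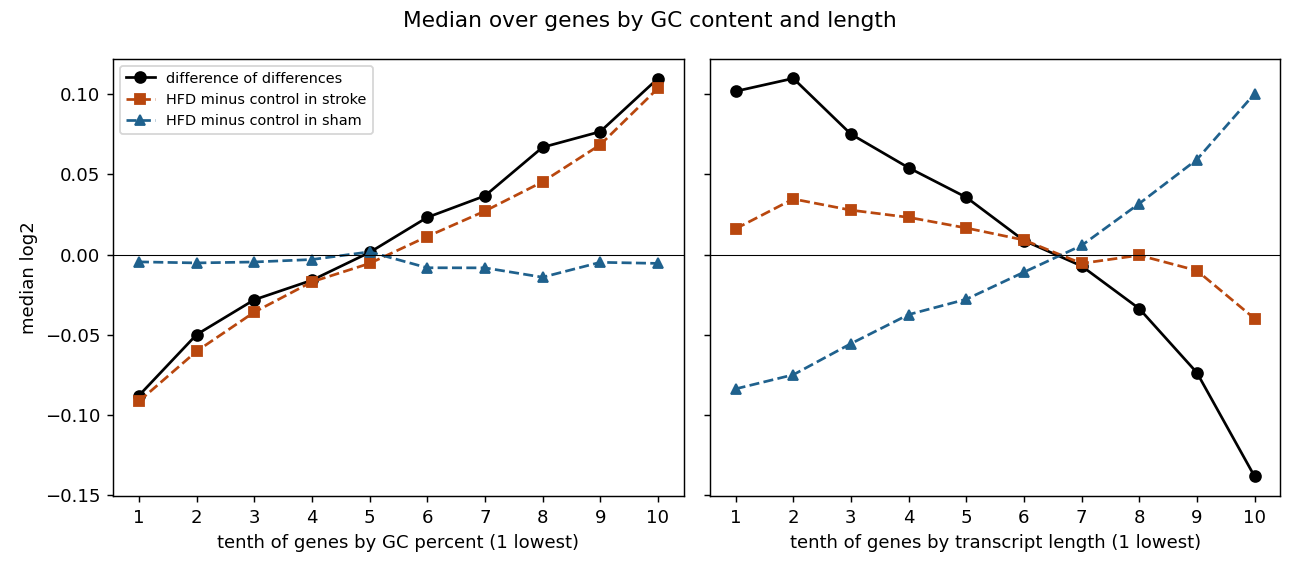
Median log2 difference (y axis) over genes in 10 classes by GC content (left) and by transcript length (right) (x axis, 1 lowest). Black points show the surgery by diet difference, squares high-fat minus control in stroke and triangles high-fat minus control in sham; GC content moves with the stroke line and length mainly with the sham line.

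The genes named with the smallest p differed in these properties. Junb, Ier5l, Gpr62 and Pim3, all with a value above 0, had a GC content of 62.6%, 63.8%, 63.0% and 61.9%. Rgs17 and Zfp738, with a value below 0, had 36.9% and 39.0%, and Bmpr2, Zfp738 and Sbno1 had transcripts of 12899, 13215 and 10161 bases. With offsets for GC content and length in the model, edgeR called 0 genes, with 738 above and 530 below 0 at an unadjusted p under 0.05. The values were then 1.09 for Junb, 0.47 for Metrn and 0.63 for Slc16a1. For Rgs17, Sbno1, Bmpr2 and Zfp738 they were -0.23, -0.12, -0.25 and -0.12, each smaller in size by over 1.5 times than without offsets. The medians of the interferon and MHC class I lists were 0.99 and 0.88 under the same offsets.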

How the data were processed

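Stranded total RNA libraries were sequenced from mouse cortex, and the 16 labelled 6 weeks were used, per the labels' protocols. The authors deposited raw read counts per Ensembl gene, 39179 entries a library. The submitters' processing notes name Trim Galore, STAR, featureCounts, HTSeq and mm9; versions, annotation and the strand setting of counting are not given in the sources used here. A further 5 summary entries, which held 45.7% to 55.6% of all counts, were left out. Symbols came from GENCODE M21 (37607 matched).

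The members and gene lists were chosen with earlier results of these data known. Genes passing filterByExpr (minimum count 10; 15991 genes) were scaled by TMM and tested with edgeR's quasi-likelihood test (edgeR 4.0.16, R 4.3.3, robust fit, 4 group means), with Benjamini-Hochberg adjustment over all of them and a threshold of 0.05. Named genes were the 10 smallest p per direction with a mean of at least 5 CPM in a group, predicted and clone names left out, and up to 3 smallest p per list, of which 1 is not reported here. The lists hold 516 entries, 509 distinct, of which 474 were tested. A list level is the mean log2 CPM of its members with a prior count of 2. Of 29 alternatives, among them DESeq2 1.42.0, limma 3.58.1 and each of 16 libraries left out, 3 (GC content, length, and both as offsets) were chosen after seeing the data. The script was tested on simulated data. Library pairs of a group differed beyond sampling noise, with a chi-square per degree of freedom of 17.9 to 27.4 in sham on the high-fat diet, 4.65 to 6.80 in sham on the control diet and 3.45 to 26.5 in stroke. Promoters and motifs were read from RefSeq on GRCm38.p6. With 11400882 to 16962682 gene counts a library, counting error limits mainly the low genes.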

Additional observations from a re-analysis of the deposited data

Results flagged for a closer look

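Samples that stood far from the others of their group were found in 13 of 268 groups of values (4.85%), where chance gives about 1 in 20. All of these were groups of stroke libraries, since the rule needs at least 4 values. The sham groups, of 3 libraries each, were not looked at, so the rule says nothing of them. In stroke on the control diet, replicate 2 was lowest in Ier5l at 3.64 CPM and highest in Lcn2 at 9.53 CPM, Aurkb at 3.52 CPM and Opalin at 22.3 CPM. Replicate 1 of that group was lowest in Hba-a2 at 11.3 CPM, replicate 4 lowest in the circadian clock list at a mean of 5.42 log2 CPM, and replicate 3 highest in the mitochondrially encoded list at 7.08 log2 CPM. In stroke on the high-fat diet, replicate 2 was highest in H2-DMb1 at 6.07 CPM, Trem2 at 66.1 CPM and Hba-a1 at 61.5 CPM, and replicate 3 lowest in Fdps at 52.8 CPM. Replicate 6 of that group was highest in the choroid plexus list at 3.85 log2 CPM and in the share of mitochondrial counts at 10.2%.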

How the results depend on the processing

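The labels carry no replicate numbers, and those used here follow the order of the libraries in the series. No pairing of libraries was known, so no paired analysis was made. The count of called genes was 0 in edgeR under every alternative run with it and in limma, and 3 in DESeq2. Of the values of single genes under alternatives, 2859 stayed on the same side of the threshold with the same sign, 3 passed it (DESeq2) and 1 changed sign, Ccl2 at -0.16 without replicate 1 of sham on the control diet (highest, 5.96, without replicate 1 of sham on the high-fat diet). Every gene began at an edgeR adjusted p of at least 0.413, so staying uncalled was likely from the start. A value could shrink much and still count among the 2859. Of the medians, 992 moved by less than the SD of the mean log2 CPM of their genes between libraries of a group, and 22 by more. That SD measures the spread of levels, not of the median. For striatal genes it was 0.87 within sham on the high-fat diet alone, so wide moves of a median can count among the 992. With both choroid-rich libraries left out the immediate early median was 0.69 and the excitatory neuron median -0.017. At a minimum count of 50 the T and B cell median was -0.72 and the choroid plexus median 2.96, over fewer genes. With limma's voom the cytokine median was 0.27. With GC and length offsets the inhibitory neuron and oxidative phosphorylation medians were -0.18 and 0.021, and with length offsets the monocarboxylate and oxidative phosphorylation medians were 0.14 and 0.0036. With 1 library left out in turn, medians lay between 0.46 and 1.12 for monocyte and granulocyte genes, -0.43 and 0.44 for T and B cell genes, 0.31 and 1.04 for cytokines, 0.40 and 0.78 for complement, -0.012 and 0.089 for homeostatic astrocytes, -0.18 and -0.017 for excitatory and -0.16 and 0.0092 for inhibitory neurons. They lay between 0.017 and 0.15 for oxidative phosphorylation, -0.89 and 1.33 for choroid plexus and -0.025 and -0.0062 for genes with a response within 0.25 of 0. The cause was not tested.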
